A study of Mus musculus with 4 samples.

Results

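Genes of the germ line and of meiosis were followed in heart-directed cultures of mouse embryonic stem cells (ESCs) with and without *Taf4a*, a subunit of the general transcription factor TFIID. The set is a list of 39 genes taken by name, for germ cell specification, the piRNA pathway, the synaptonemal complex, meiotic cohesin and meiotic recombination, and all 39 were among the 24637 genes of the table. Messenger RNA was sequenced from 4 libraries, 2 from wild-type (WT) lines and 2 from lines homozygous for a null allele of *Taf4a* that lacks exons 11 and 12. The lines were independent ESC lines, derived from blastocysts of heterozygous crosses and kept on mouse embryonic fibroblast feeders. All 4 had been cultured alike, for 5 days as embryoid bodies and then 9 days on gelatin-coated plates, which is a protocol for cardiomyocytes and not for germ cells. P-values therefore rest on the spread between 2 lines of each genotype, and each line is its own derivation. The test also draws on the spread of the other genes tested, so a p-value does not measure these lines alone.

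Germ cells set themselves apart early in the embryo, and later enter meiosis, in which homologous chromosomes pair, break, exchange strands and separate. Meiotic chromosomes are held by a special cohesin, are folded along an axis, and are joined by the synaptonemal complex, while SPO11 makes the breaks that DMC1 repairs. The piRNA pathway uses PIWI proteins, small RNAs and Tudor-domain proteins, gathered in germ granules, to silence transposons. Most of these genes are kept silent in somatic cells, in part by DNA methylation and by a variant Polycomb complex that holds MGA, MAX, E2F6 and L3MBTL2, while pluripotent cells transcribe some of them.

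The reads counted on genes ranged from 21732746 to 27733034 per library. The count of *Taf4a* itself went against the labels, with 889 and 678 normalized counts for WT but 1722 and 1799 for Taf4a-/- (log2 fold change 1.18, standard error 0.16, adjusted p = 0.00569 from limma). That count covers the whole gene and not the deleted exons alone, so genotypes are given as labelled. The lines also differed in sex-linked RNA within each genotype. The Y-linked gene *Ddx3y* was at 725 and 0 normalized counts in the WT lines and at 164.5 and 0 in the others, and *Xist* had 6.14 and 7.27 in WT against 217 and 6470.0. *Eif2s3y*, *Kdm5d* and *Uty* were likewise at 0 in replicate 2 of both genotypes, and lower in Taf4a-/- replicate 1 than in WT replicate 1. Taf4a-/- replicate 1 had both Y-linked RNA and *Xist*, and the source of this was not tested. The 6 cardiomyocyte markers were all called lower (median log2 fold change -4.13), as were 7 of 8 fibroblast markers, and 10 of 12 pluripotency markers were called higher (median 2.76). Over all genes tested, 17.3% were called lower and 11.3% higher. In bulk RNA such as this, fewer cells of a type and less RNA per cell cannot be told apart.

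Most of the germ cell and meiosis genes that could be tested were called higher in the libraries labelled Taf4a-/-. The genes were chosen with earlier results of these data known, so the shares below are a description and not an independent test. A normalized count is a read count divided by the size factor of its library, and a gene was tested when its mean over the 4 libraries was at least 10. Of the 39 genes 29 were tested, and 17 of them were called higher at an adjusted p under 0.05 in limma's moderated test on log2(normalized counts + 1), beside 11.3% of all 16926 genes tested. In the other direction, 1 gene, *Tdrd7*, was called lower, beside 17.3% of all genes tested, and 11 did not pass. The median log2 fold change of the 29 was 1.74, with a range from -0.97 to 3.29, beside -0.01 for all genes tested. However, 8 of the 29 passed the filter only through their counts in the libraries labelled Taf4a-/-, so that these had to differ. They were *Nanos3*, *Mael*, *Tdrd1*, *Sycp1*, *Syce1*, *Hormad1*, *Spo11* and *Tex11*. Of the other 21 tested genes, with a mean of at least 10 in WT as well, 12 were called higher and 1 lower, and their median log2 fold change was 1.28. No gene of the set passed the filter through WT alone. With limma's voom on the recovered reads, 16 of the set were called higher, beside 12.6% of the genes tested, and 1 lower, beside 15.2%. Over all 39 genes, with no filter, the median log2 fold change was 1.46.

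**Figure D1:**
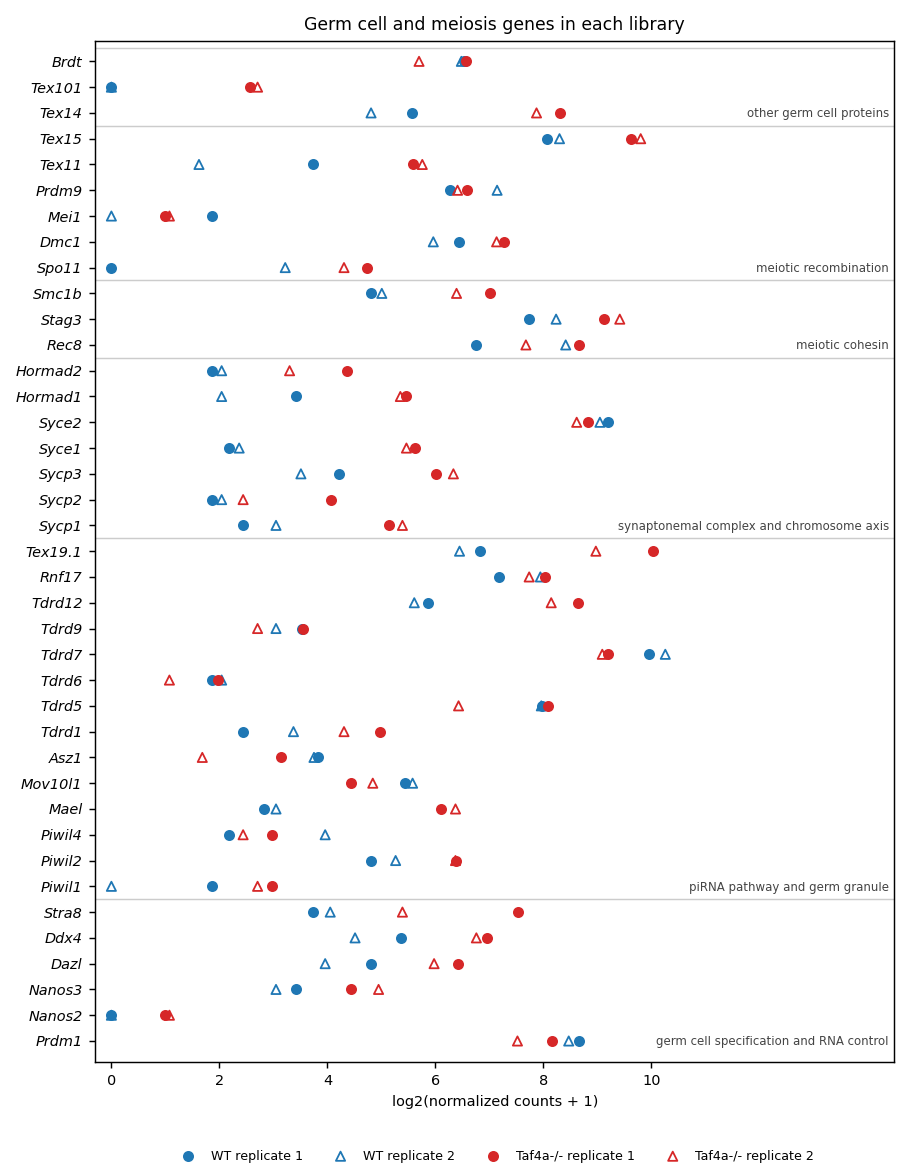
The plot gives each of the 39 genes in each library, as log2(normalized counts + 1), with genes in rows grouped by role, WT in blue and Taf4a-/- in red, replicate 1 as filled circles and replicate 2 as open triangles. Both red points lie to the right of both blue points in 25 rows and to their left in 5.

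Without any test, both libraries labelled Taf4a-/- were above both WT libraries in 25 of the 39 genes, beside 30.0% of all genes in the table, and below both in 5 genes, beside 29.6% of all. Those 5 were *Prdm1*, *Mov10l1*, *Asz1*, *Tdrd7* and *Syce2*. The genotypes overlapped in the other 9. The median of the 39 genes was 17.5 and 14.6 normalized counts for the WT lines and 67.6 and 53.1 for the lines labelled Taf4a-/-. Below, the normalized counts of a gene are given in this order, replicate 1 before replicate 2.

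The start regions of the genes carrying the largest called changes are shown here, since many germline promoters share short motifs. The motif CACGTG is an E-box that MGA and MAX can bind, and it reads alike on both strands. TCCCGC is the core of an E2F site and was searched on both strands, as TCCCGC and GCGGGA. The sequences are from RefSeq on GRCm38.p6, a later build than the mm9 of the reads. They run from 250 bases before a start to the base before it, in the direction of the gene, with motif matches in capitals. The first 4 belong to the called genes of largest fold that the promoter table holds, and *Syce1* among them has no match. The last 3 were chosen after the search because they hold both motifs.
Mael, chr1:166238745-166238994, minus strand: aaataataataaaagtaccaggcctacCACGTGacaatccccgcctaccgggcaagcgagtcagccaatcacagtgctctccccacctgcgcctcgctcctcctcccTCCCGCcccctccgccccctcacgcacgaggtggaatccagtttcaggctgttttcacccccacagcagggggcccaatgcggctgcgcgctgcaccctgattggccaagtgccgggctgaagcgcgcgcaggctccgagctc
Syce1, chr7:140787855-140788104, minus strand: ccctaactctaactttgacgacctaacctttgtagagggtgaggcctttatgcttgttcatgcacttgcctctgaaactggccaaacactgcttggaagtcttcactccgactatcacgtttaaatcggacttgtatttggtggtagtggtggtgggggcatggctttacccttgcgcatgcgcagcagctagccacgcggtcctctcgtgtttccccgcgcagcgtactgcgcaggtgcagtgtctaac
Tex14, chr11:87404815-87405064, plus strand: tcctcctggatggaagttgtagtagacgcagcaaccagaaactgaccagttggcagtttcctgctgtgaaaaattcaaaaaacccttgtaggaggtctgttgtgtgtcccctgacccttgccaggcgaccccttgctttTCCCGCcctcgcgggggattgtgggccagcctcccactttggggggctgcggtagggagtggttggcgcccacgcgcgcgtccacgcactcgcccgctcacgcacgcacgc
Tex19.1, chr11:121145893-121146142, plus strand: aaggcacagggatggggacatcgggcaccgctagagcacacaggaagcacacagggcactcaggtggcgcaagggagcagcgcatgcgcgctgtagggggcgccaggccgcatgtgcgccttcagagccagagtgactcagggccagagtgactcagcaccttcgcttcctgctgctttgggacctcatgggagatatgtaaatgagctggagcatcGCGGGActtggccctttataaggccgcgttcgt
Hormad1, chr3:95559427-95559676, plus strand: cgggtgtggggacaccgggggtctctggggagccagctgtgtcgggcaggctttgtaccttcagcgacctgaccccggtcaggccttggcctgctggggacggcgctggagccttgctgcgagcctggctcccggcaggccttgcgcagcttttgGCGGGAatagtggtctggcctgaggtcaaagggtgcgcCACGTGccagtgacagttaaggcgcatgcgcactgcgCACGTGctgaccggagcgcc
Sycp3, chr10:88459337-88459586, plus strand: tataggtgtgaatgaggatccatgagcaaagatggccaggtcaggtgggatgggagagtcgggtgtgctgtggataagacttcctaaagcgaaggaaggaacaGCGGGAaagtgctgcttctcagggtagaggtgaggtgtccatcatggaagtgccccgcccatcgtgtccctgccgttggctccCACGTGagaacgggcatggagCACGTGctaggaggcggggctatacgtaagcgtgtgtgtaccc
Ddx4, chr13:112652311-112652560, minus strand: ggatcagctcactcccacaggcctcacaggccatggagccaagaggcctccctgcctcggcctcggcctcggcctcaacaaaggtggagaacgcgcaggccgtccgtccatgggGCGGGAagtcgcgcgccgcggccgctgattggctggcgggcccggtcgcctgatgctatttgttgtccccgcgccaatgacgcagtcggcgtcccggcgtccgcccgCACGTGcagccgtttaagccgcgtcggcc

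In *Hormad1* and *Sycp3* 2 E-boxes stand downstream of 1 E2F core, in *Ddx4* 1 of each is found in the same order, and in the printed part of *Mael* the order is the opposite. *Hormad1* has 2 windows, of which the first is shown. In whole windows of 300 bases, which add 50 bases after the start, the table holds 33 of the 39 genes. *Piwil2*, *Tdrd6*, *Rnf17*, *Spo11*, *Tex11* and *Tex15* are not among them. CACGTG was found in 12 of the 33 genes (36.4%), compared with 8.09% of all 27025 genes in the table and 8.91% of the 17492 protein-coding ones. TCCCGC was found in 14 (42.4%), compared with 22% and 28.4%, and both motifs in 7 (21.2%), compared with 2.65% and 3.57%. No match shared a base with another. The genes with both were *Ddx4*, *Mael*, *Sycp1*, *Sycp3*, *Hormad1* and *Stag3*, which were called higher, and *Syce2*, which was not. Among the 14 genes called higher with a window, 6 held CACGTG and 10 held TCCCGC. Among the 9 tested but not called, 4 held the first and 4 the second, and among the 9 not tested the counts were 2 and 0. The median ratio of observed to expected CpG dinucleotides was 0.68 over the windows of the set, 0.384 over all windows and 0.567 over those of protein-coding genes. A match in a window is a description of letters, and no binding was measured.

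Of the 6 genes for germ cell specification and control of germ cell RNA, 5 were tested. Of the 5, 3 were called higher, beside 11.3% of all genes tested. DAZL and DDX4 are RNA-binding proteins that mark germ cells in both sexes, DDX4 being the Vasa helicase of the germ granule. *Dazl* had 27.2 and 14.55 in WT and 84.2 and 61.9 in those labelled Taf4a-/- (log2 fold change 1.81, standard error 0.43, adjusted p = 0.0273). *Ddx4* had 40.3 and 21.8 in WT against 123 and 107 (log2 fold change 1.92, standard error 0.38, adjusted p = 0.0169). In both genes the genotypes were apart, with WT replicate 1 above WT replicate 2. *Stra8*, which retinoic acid induces before meiotic entry, had 12.3 and 15.6 in WT against 183 and 40.9 (log2 fold change 2.57, standard error 0.70, adjusted p = 0.0404). Of the *Stra8* libraries 1 stood far above the rest, and without Taf4a-/- replicate 1 the log2 fold change was 1.5 and the call was lost.

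NANOS3, which protects early germ cells from death, did not pass the test, although its genotypes were apart. Its gene had 9.64 and 7.27 in WT against 20.6 and 29.9 (log2 fold change 1.46, standard error 0.47, adjusted p = 0.0618). *Nanos3* passed with quantile normalization and without a variance trend. *Prdm1*, which encodes the repressor BLIMP1 of germ cell specification and also acts in other lineages, had 406 and 353 in WT against 285 and 182.5 (log2 fold change -0.73, standard error 0.26, adjusted p = 0.0794). This was the opposite order, and it passed only without Taf4a-/- replicate 1 (log2 fold change -1.05, with adjusted p over all alternatives from 0.0425 to 0.402). *Nanos2*, the factor of male germ cells, had no read in WT and 1 read in each of the other libraries, so it was not measurable at this depth. The calls of *Dazl* and *Ddx4* were lost without WT replicate 2 and without Taf4a-/- replicate 1, with adjusted p over all alternatives from 0.0158 to 0.115 and 0.0092 to 0.0585. That of *Stra8* was kept only without Taf4a-/- replicate 2 among those left out, and its range was 0.0014 to 0.153.

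Of the 14 piRNA pathway and germ granule genes, 4 were called higher, 1 was called lower, 4 were tested but not called and 5 were not tested. Over all genes tested, 11.3% were called higher and 17.3% lower. The largest log2 fold change of the 29 tested genes was in this group. It was that of *Mael*, 1 of the genes tested only through the libraries labelled Taf4a-/- (ENSMUSG00000040629, chr1:168131516-168168875 on mm9), which encodes Maelstrom, a factor of transposon silencing in male germ cells. *Mael* had 6.14 and 7.27 in WT and 67.55 and 81.8 in those labelled Taf4a-/- (log2 fold change 3.29, standard error 0.39, adjusted p = 0.00384). *Tex19.1*, which acts against transposons in germ cells and placenta and is also on in ESCs, rose from 113 and 86.2 in WT to 1047 and 501 (log2 fold change 2.86, standard error 0.37, adjusted p = 0.00466). Here the genotypes were far apart, while the 2 lines labelled Taf4a-/- differed from each other by over 2-fold. *Tex19.2*, a near copy of *Tex19.1* whose reads may be partly shared with it, was also called higher, with 2.63 and 4.16 in WT against 38.2 and 21.0 (log2 fold change 2.76, adjusted p = 0.0166). Like *Mael*, *Tex19.2* passed the filter only through the libraries labelled Taf4a-/-, so it had to differ.

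*Tdrd12* encodes a Tudor-domain helicase needed for secondary piRNAs. It had 57.0 and 47.8 in WT against 399 and 282 (log2 fold change 2.66, standard error 0.27, adjusted p = 0.00271), and its call at an adjusted p under 0.05 was kept in all the fits that tested it. *Piwil2*, which encodes the PIWI protein MILI, had 27.2 and 37.4 in WT against 82.2 and 81.8 (log2 fold change 1.34, standard error 0.33, adjusted p = 0.03). The libraries labelled Taf4a-/- were nearly equal and both over 2-fold above WT, but the call of *Piwil2* was lost when any 1 of the 4 libraries was left out, with adjusted p over all alternatives from 0.0165 to 0.123. The call of *Tex19.1* was lost without WT replicate 2, with a range of 8.25e-05 to 0.0555.

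*Tdrd7*, which encodes a granule protein that is also known from the lens of the eye, was the only gene of the 39 called lower. It had 994 and 1223 in WT and 582.5 and 544 in those labelled Taf4a-/- (log2 fold change -0.97, standard error 0.16, adjusted p = 0.00894). The genotypes did not overlap, and the call was kept in all the fits that tested it, though the change was under 2-fold. *Tdrd5*, needed in the late piRNA pathway of male germ cells, had 249.9 and 248 in WT against 269 and 85.2, and only Taf4a-/- replicate 2 stood apart. Its log2 fold change was -0.71 (95% interval from -1.95 to 0.52, adjusted p = 0.328). Without Taf4a-/- replicate 1 it was -1.54 and passed, and without Taf4a-/- replicate 2 it was 0.11, with adjusted p over all alternatives from 0.0134 to 0.858.

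*Mov10l1*, which encodes the helicase that starts piRNA production, had 42.1 and 46.8 in WT against 20.6 and 27.65 (log2 fold change -0.87, 95% interval from -1.76 to 0.02, adjusted p = 0.125). *Tdrd1*, a partner of PIWI proteins, had 4.38 and 9.35 in WT against 30.35 and 18.8 (log2 fold change 1.74, standard error 0.56, adjusted p = 0.0613). Those 2 genes had separate genotypes in opposite directions, and neither passed in the main fit. *Tdrd1* passed with quantile normalization, at an adjusted p of 0.0472 in limma. *Rnf17*, another Tudor-domain gene of male germ cells, had 144 and 245 in WT against 260.4 and 212 and overlapped between genotypes, with a log2 fold change of 0.32 and an interval from -0.41 to 1.06.

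The 5 untested genes of the pathway had few reads. *Piwil1*, the PIWI gene of later male meiosis, had 2.63 and 0 in WT against 6.85 and 5.53. *Piwil4* had 3.51 and 14.55 in WT against 6.85 and 4.42, and *Tdrd9* had 10.5 and 7.27 in WT against 10.8 and 5.53, and both overlapped. *Tdrd6*, of the granule of round spermatids, was at 3 reads or fewer in all 4 libraries. *Asz1*, a mitochondrial partner of the pathway, had 13.15 and 12.5 in WT against 7.83 and 2.21. It was lower in both libraries labelled Taf4a-/-, with an adjusted p of 0.199 in the fit without a filter. The median log2 fold change of the 9 tested genes of this group was 1.34, and that of all 14 without a filter was 0.08.

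**Figure D2:**
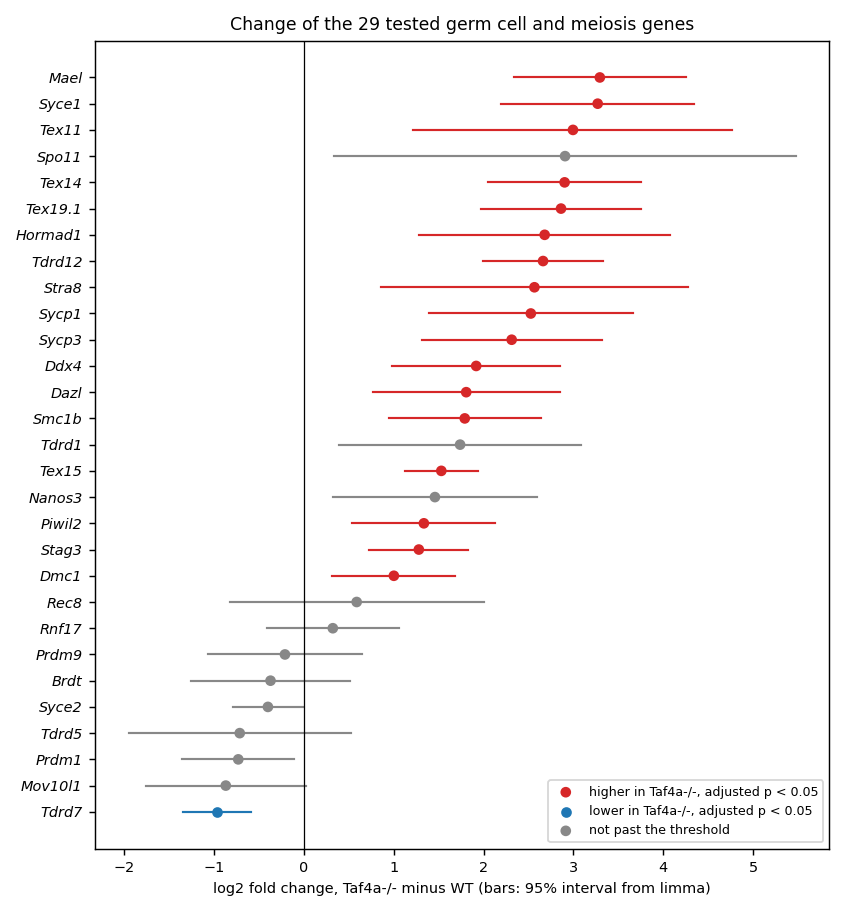
The plot gives the log2 fold change, Taf4a-/- minus WT, of the 29 tested genes on the x axis, with genes in rows by size, bars for the 95% interval from limma, and colours for the call at an adjusted p under 0.05 (red higher, blue lower, grey not called). The 17 red points lie to the right of 0, and *Tdrd7*, at -0.97, is the 1 blue point.

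Of the 7 genes of the synaptonemal complex and the chromosome axis, 5 were tested. Of the 5, 4 were called higher, beside 11.3% of all genes tested. Of these 4, *Syce1*, *Sycp1* and *Hormad1* passed the filter only through the libraries labelled Taf4a-/-, so their low WT counts are in part set by the filter. Of the other 2 tested, 1 was called. *Syce1*, for a protein of the complex's central element (ENSMUSG00000025480, chr7:147963128-147973753 on mm9), had 3.51 and 4.16 in WT and 48.0 and 43.1 in those labelled Taf4a-/- (log2 fold change 3.27, standard error 0.44, adjusted p = 0.00543). *Sycp1*, for the transverse filament that spans the paired chromosomes, had 4.38 and 7.27 in WT against 34.3 and 40.9 (log2 fold change 2.53, standard error 0.47, adjusted p = 0.0138). Both were under 10 normalized counts in each WT library and at 34.3 or more in each of the others. *Sycp3*, for a protein of the chromosome axis, had 17.5 and 10.4 in WT against 63.6 and 79.6 (log2 fold change 2.31, standard error 0.41, adjusted p = 0.0123). Of its exon length 52.2% is shared with *Chpt1* on the other strand, and the library kit does not mark strand. The reads of the overlap can be from either gene, and whether they were counted for *Sycp3* is not known here. *Chpt1* itself, at 478 and 667 in WT against 466 and 480.0, was not called (log2 fold change -0.26, adjusted p = 0.365 from limma).

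*Hormad1*, for an axis protein that watches over pairing, had 9.64 and 3.12 in WT against 43.1 and 39.8 (log2 fold change 2.68, standard error 0.58, adjusted p = 0.0209). Its relative *Hormad2* was not tested for its low counts, at 2.63 and 3.12 in WT against 19.6 and 8.85, and the genotypes did not overlap. *Sycp2*, the partner of *Sycp3* in the axis, was likewise low, at 2.63 and 3.12 in WT against 15.7 and 4.42. *Syce2*, for another protein of the central element, was the 1 tested gene of the group that did not pass. It had 583 and 528 in WT and 451 and 391.5 in those labelled Taf4a-/- (log2 fold change -0.40, 95% interval from -0.79 to -0.01, adjusted p = 0.114). Both of its values for Taf4a-/- were below both for WT. The calls of *Sycp1*, *Sycp3* and *Hormad1* were lost without some single library, namely Taf4a-/- replicate 2 for *Sycp1*, WT replicate 2 for *Sycp3*, and WT replicate 2 or Taf4a-/- replicate 1 for *Hormad1*. Their adjusted p ran over all alternatives from 0.0102 to 0.0591, 0.00843 to 0.0546 and 0.0121 to 0.0567.

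All 3 cohesin genes of meiosis were tested, and 2 were called higher, beside 11.3% of all genes tested. *Stag3* (ENSMUSG00000036928, chr5:138721468-138753621 on mm9), for the stromal subunit found in all meiotic cohesin, had 212 and 300.3 in WT and 554 and 681 in those labelled Taf4a-/- (log2 fold change 1.28, standard error 0.23, adjusted p = 0.0121). *Smc1b*, for the meiotic form of the SMC1 subunit, had 27.2 and 31.2 in WT against 128 and 82.95 (log2 fold change 1.79, standard error 0.35, adjusted p = 0.0158). In both genes each library labelled Taf4a-/- was above each WT library. *Rec8*, for the meiotic kleisin, had 106 and 339.8 in WT against 402 and 203.5, and its WT lines differed by over 3-fold. Its log2 fold change was 0.59 (95% interval from -0.83 to 2.00, adjusted p = 0.475), and it was -0.25 without WT replicate 1, with adjusted p over all alternatives from 0.131 to 0.933. The call of *Smc1b* was lost without WT replicate 1, WT replicate 2 or Taf4a-/- replicate 1, with a range of 0.0098 to 0.0872.

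Of the 6 genes for meiotic recombination, 5 were tested and 3 were called higher, beside 11.3% of all genes tested. *Tex15* (ENSMUSG00000009628, chr8:34627210-34696054 on mm9), needed for the repair of meiotic breaks and for transposon silencing, had 267 and 314 in WT and 789 and 891 in those labelled Taf4a-/- (log2 fold change 1.53, standard error 0.17, adjusted p = 0.00311). *Tex11*, an X-linked gene for crossing over, had 12.3 and 2.08 in WT against 47.0 and 53.1 (log2 fold change 3.00, standard error 0.73, adjusted p = 0.0296). It too was tested only through the libraries labelled Taf4a-/-. Its 2 WT libraries differed by over 2-fold at few reads, and those labelled Taf4a-/- were both above them. *Dmc1*, for the recombinase of meiotic strand exchange, had 85.9 and 61.3 in WT against 154 and 139 (log2 fold change 1.00, standard error 0.28, adjusted p = 0.0437).

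*Spo11*, whose product makes the breaks, had 0 and 8.31 in WT against 25.45 and 18.8 (log2 fold change 2.91, standard error 1.06, adjusted p = 0.0872). It passed in limma with a pseudocount of 10. With no read in 1 WT library, its value depended on the line, and it passed without WT replicate 2 at a log2 fold change of 4.52, with adjusted p over all alternatives from 0.0367 to 0.18. *Prdm9*, which marks where breaks are made, overlapped between genotypes, with 76.3 and 140.3 in WT against 94.95 and 84.05 (log2 fold change -0.21, 95% interval from -1.07 to 0.65, adjusted p = 0.683). Its sign turned without WT replicate 2, to 0.23, and with quantile normalization, to 0.15, with a range of 0.147 to 0.895. *Mei1*, also needed for breaks, was at 3 reads or fewer in all libraries. The call of *Dmc1* was kept without WT replicate 1 but lost without each of the other 3 libraries, with adjusted p over all alternatives from 0.0185 to 0.193. That of *Tex11* was lost without WT replicate 2 or Taf4a-/- replicate 2, with a range of 0.0139 to 0.0725.

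The last 3 genes are germ cell proteins of other kinds. *Tex14* (ENSMUSG00000010342, chr11:87218567-87369325 on mm9), for a protein of the bridges that join dividing germ cells, had 46.5 and 27.0 in WT and 316 and 233 in those labelled Taf4a-/- (log2 fold change 2.90, standard error 0.35, adjusted p = 0.00391). *Tex101*, for a surface protein of germ cells, had no read in WT and 5 reads in each library labelled Taf4a-/-. Against a floor of 3 reads it was at least 1.74-fold higher, and it was under the filter. In limma without the filter its log2 fold change was 2.63 (adjusted p = 0.0242). *Brdt*, the bromodomain gene of the testis, had 91.2 and 88.3 in WT against 94.0 and 50.9, and only Taf4a-/- replicate 2 stood apart (log2 fold change -0.37, 95% interval from -1.25 to 0.51, adjusted p = 0.471). Its log2 fold change was 0.066 without that library, with adjusted p over all alternatives from 0.266 to 0.969.

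Levels are comparable between genes only per length, and were computed as RPKM, reads scaled to exon length and to the library's reads on genes, with exons from the annotation of mm9. On this scale the set was low even where it rose. The median of the 39 genes was 0.280 and 0.299 RPKM in WT and reached 1.18 and 0.855 RPKM in the lines labelled Taf4a-/-. Levels under 1 RPKM were found for 29 and 28 of the 39 genes in WT, and for 18 and 23 in the others. The highest levels in WT were those of *Syce2*, with a mean of 11.35 in WT and 8.97 in those labelled Taf4a-/-, and *Tdrd7*, with 11.04 in WT and 5.86 in those labelled Taf4a-/-. In the libraries labelled Taf4a-/- the highest was *Tex19.1*, with a mean RPKM of 2.15 in WT and 17.35 in those labelled Taf4a-/-. *Tex15*, in spite of its many reads, had only 1.21 in WT and 3.65 in those labelled Taf4a-/-, and *Stag3* had 1.79 in WT and 4.51 in those labelled Taf4a-/-.

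**Figure D3:**
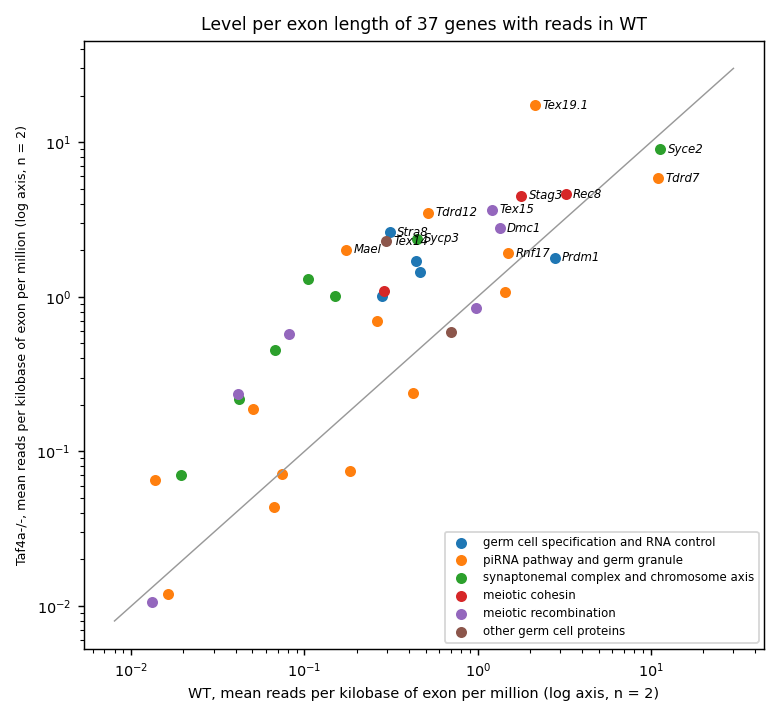
The plot sets the mean RPKM in Taf4a-/- (y axis) against that in WT (x axis) for the 37 genes with reads in WT, both on log axes, with colours for the roles and a diagonal of equal level. *Tex19.1* lies farthest above the diagonal among genes over 1 RPKM in WT, at 2.15 against 17.4, and *Tdrd7* and *Syce2* lie below it at the highest WT levels.

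The 2 lines of each genotype were set side by side to see how far single lines carried the result. Among the 29 tested genes, 3 were at least 2-fold higher in Taf4a-/- replicate 1 than in replicate 2 (*Stra8*, *Tdrd5* and *Tex19.1*), beside 2.40% of all genes tested, and none was at least 2-fold higher in replicate 2, beside 2.87%. In WT, *Hormad1* and *Tex11* were at least 2-fold higher in replicate 1, beside 4.06%, and *Rec8* and *Spo11* in replicate 2, beside 2.89%. Taf4a-/- replicate 1 had the higher value in 21 of the 29 genes, and the median log2 difference between these 2 lines was 0.20. In WT, replicate 1 was higher in 14, with a median of -0.15. With 1 library left out, between 8 and 14 of the set were called higher, the lowest without WT replicate 2 and 10 without Taf4a-/- replicate 1. *Mael*, *Tdrd7*, *Tdrd12*, *Syce1*, *Stag3*, *Tex15* and *Tex14* kept their call, at an adjusted p under 0.05, in each fit that tested them.

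**Figure D4:**
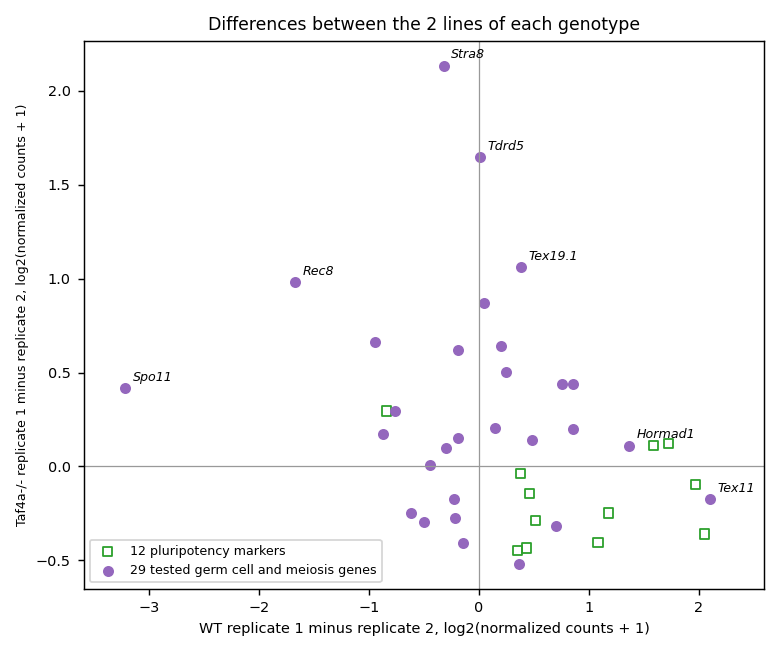
The plot gives, for the 29 tested genes, the log2 difference between replicates 1 and 2 within WT (x axis) and within Taf4a-/- (y axis), as purple points, and for 12 pluripotency markers as open green squares, with lines at 0. *Stra8*, *Tdrd5* and *Tex19.1* lie highest, over 1 on the y axis, and *Rec8* and *Spo11* lie farthest left.

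Germline genes outside the set were read from 6 further lists, which held 77 genes, of which 62 were in the table and 39 were tested. Together, 12 of the 39 were called higher and 2 lower, beside 11.3% and 17.3% of all genes tested. Of the 39, 4 passed the filter only through the libraries labelled Taf4a-/- and 1 only through WT. The median log2 fold change of the 39 was 0.56. Of 9 further piRNA and germ granule genes tested, 4 were called higher and none lower (none also with voom or at an unadjusted p under 0.05 in limma). They were *Gpat2* (log2 fold change 2.63, adjusted p = 0.0077), *Fkbp6* (1.92, 0.0396), *Pnldc1* (1.91, 0.00845) and *Stk31* (1.89, 0.0241). *Fkbp6* passed the filter only through the libraries labelled Taf4a-/-, with 5.26 and 3.12 in WT against 17.6 and 18.8. In limma without the filter its adjusted p was 0.0527. GPAT2 and FKBP6 act in piRNA production, and PNLDC1 trims piRNA ends. Of 14 further meiosis genes tested, 1 was called higher, *Hsf2bp*, a factor of recombination, beside 11.3% of all genes tested. It was at 49.97 and 17.7 in WT against 127 and 124 (log2 fold change 2.04, adjusted p = 0.0305), and the median of the 14 was 0.40.

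Genes of primordial germ cells and spermatogonia were called higher in 5 of 10 tested and lower in 1, beside 11.3% and 17.3% of all genes tested. *Prdm14*, a repressor needed for germ cell fate and for naive pluripotency, had 15.8 and 5.195 in WT against 111 and 125 (log2 fold change 3.54, adjusted p = 0.00752). *Dppa3*, which marks germ cells and also ESCs, had 21.9 and 15.6 in WT against 224 and 178 (3.36, 0.00241). The other three were *Sohlh2*, *Alpl* and *Dnd1*, with log2 fold changes of 2.602, 2.02 and 1.74. *Ifitm3*, which is also widely expressed outside the germ line, was called lower (-0.75, adjusted p = 0.0479). *Taf4b*, a paralogue of *Taf4a* needed for fertility and also expressed in ESCs, was called higher. It had 263 and 162 in WT against 533.5 and 534 (log2 fold change 1.37, standard error 0.26, adjusted p = 0.0143). *Taf7l* and *Tbpl1*, also germ cell paralogues of general transcription factors, were tested and not called (log2 fold changes 0.71 and 0.29, adjusted p = 0.252 and 0.115).

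Most markers of late germ cells were under the filter. Of 12 oocyte genes in the table, 7 had 3 reads or fewer in all 4 libraries and 2 were tested. *Zp3*, of the egg coat, had 0.877 and 3.12 in WT against 26.4 and 22.1 and was called higher (3.18, adjusted p = 0.0152), having passed the filter only through the libraries labelled Taf4a-/-. *Gdf9*, an oocyte growth factor, had 25.4 and 29.1 in WT against 6.85 and 5.53 and was called lower (-1.98, adjusted p = 0.0247). It passed the filter only through WT. Of 8 spermatid genes, 5 had 3 reads or fewer everywhere and 1, *Gapdhs*, was tested, with 69.3 and 49.9 in WT against 63.6 and 87.4. It did not pass in limma, at an unadjusted p under 0.05 or with voom. Somatic cells of the gonad were looked for through 10 genes, of which *Nr5a1*, *Fshr* and *Lhcgr* had 3 reads or fewer in all libraries. Of the 5 tested, the steroid genes *Star* (0.88, adjusted p = 0.0411) and *Cyp11a1* (-2.23, adjusted p = 0.0381) were called, in opposite directions. *Cyp11a1*, at 21.9 and 17.7 in WT against 1.96 and 5.53, passed the filter only through WT. The call of *Star* was lost (0 called higher) without each of the 4 libraries, and that of *Cyp11a1* (0 called lower) without WT replicate 1, WT replicate 2 or Taf4a-/- replicate 1.

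Genes that silence the germ line in other cells were also read. Of 20 such genes, all tested, 4 were called higher by limma and none lower, beside 11.3% and 17.3% of all genes tested, and none was lower with voom or at an unadjusted p under 0.05. The 4 became 9 without WT replicate 1, 2 without either library labelled Taf4a-/-, and 1 without a variance trend. *Dnmt3l*, the cofactor of new DNA methylation in germ cells, which ESCs also express, had 269 and 157 in WT against 1694 and 1847 (log2 fold change 3.10, standard error 0.26, adjusted p = 0.0015). *L3mbtl2*, *Hdac1* and *Setdb1* had smaller log2 fold changes of 0.96, 0.64 and 0.62 (adjusted p = 0.012, 0.0154 and 0.0237). DNA methylation was not measured.

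Pluripotency markers differed between the genotypes in the same direction as most of the set. Of the 12, 10 were called higher, beside 11.3% of all genes tested. The summed level of the 12 was 6117 and 3073 normalized counts in WT, against 18770 and 21430 in the lines labelled Taf4a-/-, and none of the 12 was called lower by limma, by voom or at an unadjusted p under 0.05. Between the 2 WT lines their median log2 difference, replicate 1 minus replicate 2, was 0.80, while that of the 29 germ cell and meiosis genes was -0.15. Between the lines labelled Taf4a-/- these medians were -0.20 and 0.20. The median of the set varied between replicates with a standard deviation of 0.159 on the log2 scale. With 2 lines per genotype, these medians do not show whether the markers and the set go together. The part of the pluripotency markers in the higher level of the germ cell genes was not tested.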

How the data were processed

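RNA of 4 libraries was sequenced, 2 of each genotype, after polyA selection with a kit that does not mark strand. According to the submitters' processing notes, the authors used CASAVA 1.8, TopHat 1.3.3, HTSeq 0.5.3p1 and DESeq, with mm9, and deposited read counts divided by 1 size factor per library. Divided by the value of 1 read (0.877 to 1.11 normalized counts), 100% of the values came out whole within 0.01. No value column belonged to another sample.

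Genes with a mean of at least 10 were compared in limma 3.58.1 (R 4.3.3, lmFit and trended eBayes, 4.17 prior degrees of freedom) on log2(value + 1), a scale that understates changes of low genes, and p-values were Benjamini-Hochberg adjusted over all 16926 genes. The 95% intervals are those of limma. The floor of 3 reads covers counting error only. The fit was tested on simulated data with the same fixed dispersion for every gene. That test does not show how the fit performs on lines that differ as these do. Exon lengths came from GENCODE vM1 on mm9, where all 24637 identifiers were found, and promoters from RefSeq on GRCm38.p6. Figures were drawn with matplotlib 3.10.9.

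All 39 genes and the genes of the other lists were to be described by role, with full values for called genes. The genes and lists were chosen with earlier results of these data known. Alternatives changed the pseudocount, the filter, the scaling, the threshold or the variance model, added a replicate block, or left out a library, and voom on the recovered reads was chosen after seeing the data. Without 1 library, the lone sample of a genotype was assumed to vary like the others. Listed genes missing from the table, such as *Meiob* and *Tfap2c*, were not analysed here.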

Additional observations from a re-analysis of the deposited data

How the results depend on the processing

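Of the set, 17 genes were called higher. The count was 10 at a mean of at least 50, 6 at an adjusted p under 0.01, and 8 to 14 without 1 library. The count called lower was 1, against 1 to 3 without 1 library and 0 when 2-fold was required. The median log2 fold change of the tested genes, 1.74, was 1.25 with a pseudocount of 10, 1.46 without a filter, 1.14 at a mean of at least 50, 1.91 after quantile normalization (all genes then had a median of 0.11), and 1.42 to 2.02 without 1 library. Without 1 library, the log2 fold change of Tdrd5 ran from -1.54 to 0.112 and the log2 fold change of Brdt from -0.807 to 0.0659, both turning sign without Taf4a-/- replicate 2. The log2 fold change of Rnf17 ran from -0.0602 to 0.706 and the log2 fold change of Rec8 from -0.247 to 1.42, both turning without WT replicate 1. The log2 fold change of Prdm9 ran from -0.645 to 0.225, turning without WT replicate 2, and was 0.149 with quantile normalization. Causes of these shifts were not tested.

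With a block for the replicate number, 16 of the set were called higher, *Dmc1* being lost, and the genes called higher were 1536 and the genes called lower 2657. The samples share only a number, since no source pairs the lines, and same-numbered samples deviated with a correlation of 0.01 over the genes tested. Other lost calls were *Stra8* with voom, *Stra8*, *Dmc1* and *Tex11* without a trend, and *Dmc1* without a filter. Gained calls were *Nanos3* and *Tdrd1* with quantile normalization, *Nanos3* without a trend, and *Spo11* with a pseudocount of 10.

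Over all genes tested, the genes called higher were 1906 and the genes called lower 2928. The counts were 856 and 1741 without a variance trend, 331 and 1119 at an adjusted p under 0.01, and 747 and 1936 with 2-fold required, and 624 to 2476 and 1222 to 3038 without 1 library. Quantile normalization gave 2624 and 2460, a larger share of higher calls.

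In the other lists, further meiosis genes called higher were 1, against 2 without a filter and with quantile normalization, 0 without a trend and at adjusted p under 0.01, and 0 to 2 without 1 library. Further piRNA genes called higher were 4, against 2 at a mean of at least 50 and at adjusted p under 0.01, 7 with quantile normalization, and 2 to 3 without 1 library. Primordial germ cell genes called higher were 5, against 3 at adjusted p under 0.01. *Ifitm3*, the 1 called lower there, was lost (0) without a filter, at a mean of at least 50, with quantile normalization, without a trend, with voom, at adjusted p under 0.01 and with 2-fold required, and the count was 0 to 2 without 1 library. Oocyte genes called higher and lower, 1 each, were 0 at a mean of at least 50 and at adjusted p under 0.01, and 0 to 1 without 1 library. Spermatid genes were 1 without a filter. The *Taf4b* call was lost at adjusted p under 0.01, leaving 0. Repressors called higher, 4, were 1 without a trend, at adjusted p under 0.01 and with 2-fold required, and 2 to 9 without 1 library. Gonadal somatic genes called higher and lower, 1 each, were 0 with the replicate block, 0 and 0 to 1 without 1 library, and 2 were called higher under quantile normalization and without a trend. Together, the 12 called higher were 5 at adjusted p under 0.01 and 7 to 12 without 1 library, and the 2 called lower were 1 without a filter, with quantile normalization, without a trend, with voom and with 2-fold required, 0 at a mean of at least 50 and at adjusted p under 0.01, and 0 to 3 without 1 library.

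Tests with edgeR and DESeq2 were planned and not run, because decimal commas kept the deposited values from being declared as counts. The recovered reads were whole, and voom was run on them instead. *Nanos2*, *Tdrd6* and *Mei1*, at 3 reads or fewer, were under what this depth can compare.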
